A study of Mus musculus with 12 samples.

Results

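The miR-30 family was followed in exosomes collected from the medium of mouse granulosa cells under iron load. It was taken as 7 entries of the deposited miRNA tables, namely mmu-miR-30a-5p, mmu-miR-30b-5p, mmu-miR-30c-5p, mmu-miR-30d-5p, mmu-miR-30e-5p, mmu-miR-30a-3p and mmu-miR-30e-3p, chosen by name out of 637 entries. Small RNA was sequenced in 12 libraries, 3 in each of 4 groups, from exosomes collected out of the medium of granulosa cells of Kunming mice. The cells spent 24 h in medium free of exosomes and were then cultured for 48 h. CON cells received no treatment. FAC cells received 100 μM ferric citrate, an iron salt. DFO cells received 100 μM ferric citrate together with 100 μM deferoxamine mesylate, an iron chelator. VE cells received 100 μM ferric citrate together with 200 μM VITE, a lipophilic antioxidant. CON was thus the only group without ferric citrate, and no group received deferoxamine mesylate or VITE alone. Released RNA was measured, not cellular RNA, and the number of exosomes and the RNA in each exosome cannot be told apart.

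A miRNA is cut from a hairpin as a duplex of 2 arms, called 5p and 3p, and it directs the repression of messenger RNAs mainly through its seed, bases 2 to 8. The 5p arms of the miR-30 family share 1 seed. They are known from many tissues as regulators of differentiation, autophagy and fibrosis, and among their established targets are beclin 1, an autophagy protein, and connective tissue growth factor. The 3p arms of miR-30a and miR-30e carry another seed and therefore form a separate target class. In the mouse genome the hairpins lie in pairs, Mir30a beside Mir30c-2, Mir30b beside Mir30d, and Mir30e beside Mir30c-1 within the gene Nfyc. The mature mmu-miR-30c-5p comes from both miR-30c hairpins, so its counts cannot be given to either of them.

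Mature sequences of 5 of the 7 members were taken from RefSeq (GRCm38.p6) and are shown because reads of close members can be hard to part. The seed is in capitals.
mmu-miR-30a-5p: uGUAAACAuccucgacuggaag
mmu-miR-30e-5p: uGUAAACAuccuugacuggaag
mmu-miR-30c-5p: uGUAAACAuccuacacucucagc
mmu-miR-30a-3p: cUUUCAGUcggauguuugcagc
mmu-miR-30e-3p: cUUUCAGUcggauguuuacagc
Counted from the 5′ end, mmu-miR-30a-5p and mmu-miR-30e-5p were the same at 21 of 22 bases and parted by C13U. The 3p arms of both hairpins were also the same at 21 of 22 bases and parted by G18A. The values of these near-identical members are therefore uncertain to the extent that the authors' counting could exchange reads between them. The sequence of mmu-miR-30c-5p shared its first 12 bases with mmu-miR-30a-5p and differed at 5 later positions (C13A, G14C, G18C, G19U and A20C).

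The miRNA counts of a library summed to between 452021 and 7565362, and the level of 3 counts, used here as the detection floor, lay between 0.351 and 7.90 CPM. CPM scales a count to the total miRNA counts of its library, with TMM scaling between libraries. The miRNA counts took 1.997 to 4.998% of the read total in CON libraries and 21.65 to 30.45% in FAC libraries, against 5.53 to 19.9% in DFO and 9.20 to 14.6% in VE libraries. A level in CPM is therefore relative to the miRNAs of that library. It is not a plain share of them, since the TMM factors ran from 0.84 to 1.43. A level in RPM, which the authors scaled to the library read total, also carries the difference in the miRNA share. Which reads make up that total is not given in the sources used here. Of the miRNAs linked to granulosa cells, mmu-miR-21a-5p was found in all 12 libraries at 926 to 2910 CPM, while mmu-miR-202-5p was at 0 in 11 and mmu-miR-212-3p at 0 in 10 libraries. mmu-miR-122-5p, the defining miRNA of liver, was at 41700 to 183000 CPM in the 12 libraries. Among the other lists, the summed erythroid miRNAs, mainly the joined mmu-miR-486a-5p and mmu-miR-486b-5p entry, reached 7290 to 170000 CPM, and the stromal list, mainly mmu-miR-143-3p, 14000 to 109000 CPM. Of the erythroid list, mmu-miR-451a was found in all 12 libraries at 8.61 to 3800 CPM, while mmu-miR-144-3p was at 0 in 11. The leukocyte list summed to 1.81 to 367 CPM, mainly mmu-miR-150-5p, which was found in all 12 libraries at 1.81 to 367 CPM. In that list mmu-miR-142a-3p and mmu-miR-223-3p were each at 0 in 11 libraries and mmu-miR-142a-5p in 8. The epithelial list summed to at most 289 CPM. The muscle list was the only one of the 7 whose summed FAC and CON libraries did not overlap, at 148 to 202 CPM in FAC and 292 to 592 CPM in CON. Its 2 found entries each overlapped when taken singly. mmu-miR-206-3p was at 146 to 202 CPM in FAC and 15.7 to 292 in CON, and mmu-miR-1a-3p at 0.267 to 16.9 and 0 to 481. The part of these miRNAs in the results was not tested, nor was the cell source of the miRNAs in the preparations.

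The family was led by 3 entries. mmu-miR-30d-5p held 47.8% ± 12.1 (SD, n = 12) of the counts of the 7 members, mmu-miR-30a-3p 25.6% ± 9.41 and mmu-miR-30a-5p 17.5% ± 5.96. mmu-miR-30c-5p followed with 4.94% ± 2.22 and mmu-miR-30e-3p with 3.83% ± 3.17. The remaining members were scarce, mmu-miR-30e-5p with 0.255% ± 0.38 and mmu-miR-30b-5p with 0.0649% ± 0.13. mmu-miR-30d-5p was the highest member in 9 libraries and mmu-miR-30a-3p in the other 3. Among all 637 entries, mmu-miR-30d-5p ranked between 16 and 46, mmu-miR-30a-3p between 16 and 54 and mmu-miR-30a-5p between 21 and 101. All 7 members passed the filter of 10 counts over the 12 libraries, and 5 of them had counts in every library. mmu-miR-30e-5p had counts in 10 and mmu-miR-30b-5p in 8 libraries. Mature miRNAs are of nearly the same length, and no level was corrected for length.

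**Figure D1:**
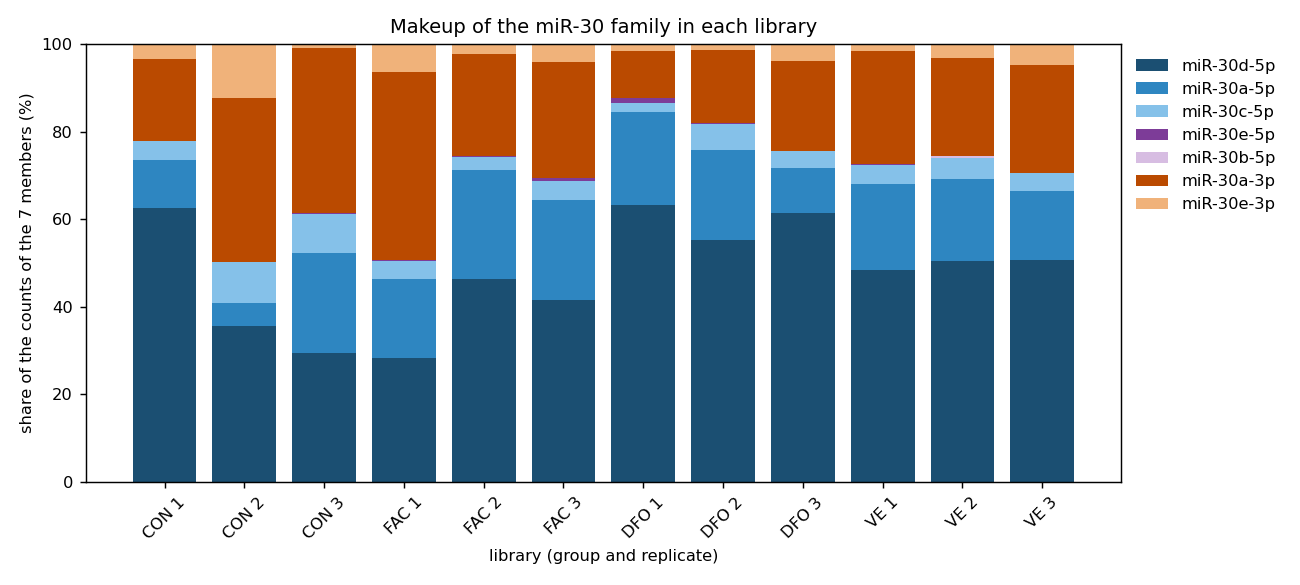
Share of each member in the summed counts of the 7 miR-30 members (vertical axis, percent) in each of the 12 libraries (horizontal axis, group and replicate). mmu-miR-30d-5p made up 28.2 to 63.2% of the family. Its share was 55.3 to 63.2% in the 3 DFO libraries and 62.5% in CON replicate 1.

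The summed level of the family was highest in the FAC group. It was 6222, 5150 and 3345 CPM in CON replicates 1 to 3 and 13370, 12490 and 6021 CPM in the FAC replicates. It was 4888, 7122 and 4671 CPM in the DFO replicates and 4619, 7335 and 7145 CPM in the VE replicates. The means were 10600 ± 4010 CPM (SD, n = 3) in FAC, 6370 ± 1520 in VE, 5560 ± 1360 in DFO and 4910 ± 1450 in CON. FAC replicates 1 and 2 were above all other libraries, but FAC replicate 3 lay below CON replicate 1, DFO replicate 2 and VE replicates 2 and 3, so the groups overlapped at every step of this order. Since the sum is a score over chosen members, no test was applied to it. As a share of all miRNA counts the family ran from 0.304% (95% Wilson interval 0.291 to 0.317, CON replicate 3) to 1.79% (1.78 to 1.80, FAC replicate 2). Such intervals, like the floors, take in counting error alone, because copies made by amplification are not separate molecules.

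On the scale of the library read total the order changed below FAC and the steps were wider. The mean family sum was 162 RPM in CON, 3230 RPM in FAC, 817 RPM in DFO and 730 RPM in VE. The 3 FAC libraries stood at 4594, 3878 and 1209 RPM and the 3 CON libraries at 313.4, 86.43 and 86.06 RPM. FAC and CON did not overlap on this scale, which includes the miRNA share given above, while DFO replicate 2 (1617 RPM) lay above FAC replicate 3.

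**Figure D2:**
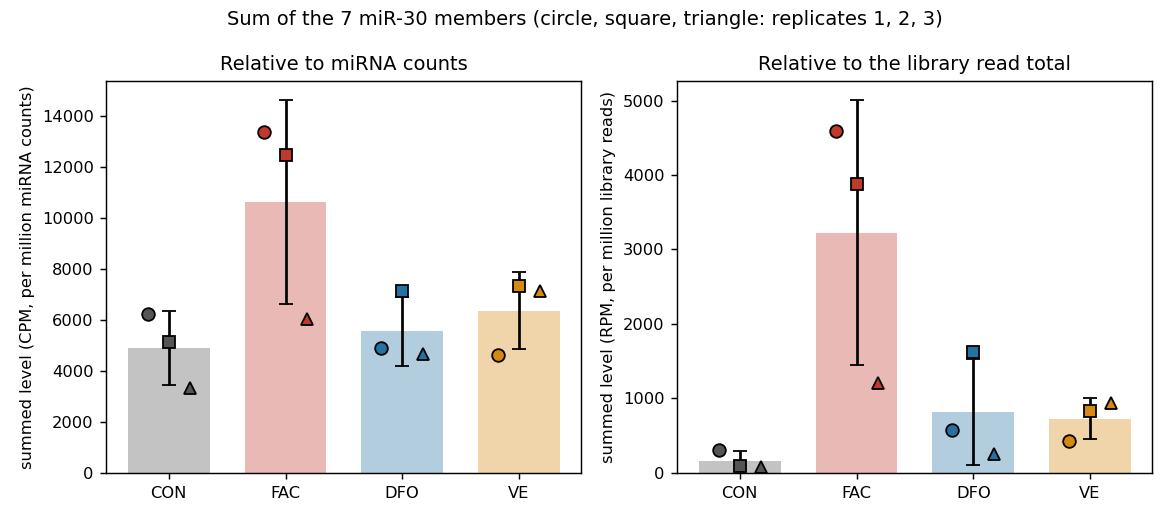
Summed level of the 7 miR-30 members by group, in CPM relative to miRNA counts (left) and in RPM relative to the library read total (right). Points are libraries, bars are means and error bars are SD (n = 3). FAC replicate 3, at 6021 CPM, lay within the range of the other groups on the left axis, while on the right axis all FAC libraries were above all CON libraries.

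The first comparison asked how iron load alone changed the exosomal miRNAs, FAC against CON. Of the 5p members, mmu-miR-30a-5p rose. Its level was 684.7, 260.6 and 759.5 CPM in CON replicates 1 to 3 and 2417, 3097 and 1381 CPM in the FAC replicates. All 3 FAC libraries were above all 3 CON libraries, and the means were 2300 ± 864 (SD, n = 3) against 568 ± 269 CPM. The log2 fold change was 2.01 (standard error 0.74), past the threshold that the study set, at least 1.5-fold with p under 0.05 before adjustment, by the quasi-likelihood test of edgeR. Adjusted by Benjamini-Hochberg for all 547 entries tested, it missed 0.05 (edgeR, adjusted p = 0.155). The standard errors given here for edgeR fold changes were derived from the F statistic of its test. Without each library in turn, the log2 fold change of mmu-miR-30a-5p stayed between 1.83 and 2.47, with an edgeR adjusted p of 0.0502 to 0.502.

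The most abundant member, mmu-miR-30d-5p, did not pass the threshold. It stood at 3886, 1838 and 987.5 CPM in CON replicates 1 to 3 and at 3772, 5799 and 2501 CPM in FAC. CON replicate 1 reached the level of FAC replicate 1, and the groups overlapped. It had a log2 fold change of 0.85 (standard error 0.60, edgeR adjusted p = 0.607).

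mmu-miR-30c-5p was nearly level between the groups. Its values were 263.7, 484.4 and 301.9 CPM in CON and 542.4, 367.1 and 253.7 CPM in FAC, with the highest and the lowest of the 6 libraries both in FAC. A log2 fold change of 0.15 had a standard error of 0.96, so a difference of this size was far within the spread. Its sign turned under other scalings (-0.04 with RLE factors, -0.08 with the stricter low-count filter).

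mmu-miR-30e-5p was scarce but stood higher in every FAC library. It had 5, 0 and 3 counts in CON replicates 1 to 3, and 298, 182 and 204 counts in FAC. In CPM these were 4.09, 0 and 4.72 against 34.9, 24.3 and 41.4. On the log2 scale the change was 3.45 with a standard error of 2.80 (edgeR adjusted p = 0.607), and the threshold was not passed although the groups did not overlap. A 3-count level in these CON libraries was 2.46 to 7.90 CPM.

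mmu-miR-30b-5p was found in 1 of the 3 CON libraries. It had 0, 0 and 1 counts in CON and 111, 112 and 0 counts in FAC replicates 1 to 3. FAC replicate 3 had none, as had both empty CON libraries. The log2 fold change was 4.06 with a standard error of 3.82. The ratio of the summed counts, relative to miRNA counts with TMM scaling, was 23.8 with an exact counting interval of 4.23 to 945. That interval takes the reads of a group together and says nothing of the spread between libraries, which overlapped, and the edgeR adjusted p was 0.607.

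Of the 3p members, mmu-miR-30a-3p was at 1167, 1925 and 1256 CPM in CON and at 5736, 2909 and 1596 CPM in FAC. FAC replicates 1 and 2 were above all CON libraries and FAC replicate 3 was not. Its log2 fold change of 1.24 (standard error 0.67) was short of the threshold (edgeR adjusted p = 0.599).
mmu-miR-30e-3p was at 216.2, 642.4 and 33.02 CPM in CON, against 854.6, 273.6 and 248.2 CPM in FAC. Its log2 fold change was 0.63 (standard error 1.01, edgeR adjusted p = 0.746), and it was -0.25 without FAC replicate 1.

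Over the members, 1 of 7 passed the study's threshold between FAC and CON, beside 9.51% of the 547 tested entries (2.38% higher in FAC). No member had an adjusted p under 0.05 in edgeR or in DESeq2, with 1 and 2 members at an unadjusted p under 0.05 respectively, while 0.183% of the tested entries had an adjusted p under 0.05 in edgeR and 3.84% in DESeq2. In DESeq2 13.2% of the tested entries were past the study's threshold. The FAC libraries of 2 members, mmu-miR-30a-5p and mmu-miR-30e-5p, lay wholly above the CON libraries, as did those of 10.1% of all tested entries. The median log2 fold change was 1.24 over the members and 1.38 over all 547 entries. In all 7 members the fold change was above 0, as it was in 348 of the 547 entries (63.6%). The median of the members thus lay slightly below that of all entries in this fit, and this order depended on the low-count filter. With the stricter filter the median of the 312 entries then tested was 0.08. mmu-miR-30a-3p, the middle member in both fits, was then at 0.98, above that median.

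When edgeR was given the library read totals as scaling, 6 members were past the threshold between FAC and CON, as were 159 of the 547 entries (29.1%), all of them higher in FAC. With this scaling 5 of the 7 members had an adjusted p under 0.05, beside 89 of the 547 entries. The median over all entries was then 4.35 on the log2 scale. mmu-miR-30a-5p had a log2 fold change of 5.15 and mmu-miR-30e-5p of 6.34, both above that median. mmu-miR-30a-3p was at 4.69, mmu-miR-30e-3p at 4.25, mmu-miR-30d-5p at 3.84 and mmu-miR-30c-5p at 3.59, the last 3 of them below it. The member that did not pass was mmu-miR-30b-5p.

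**Figure D3:**
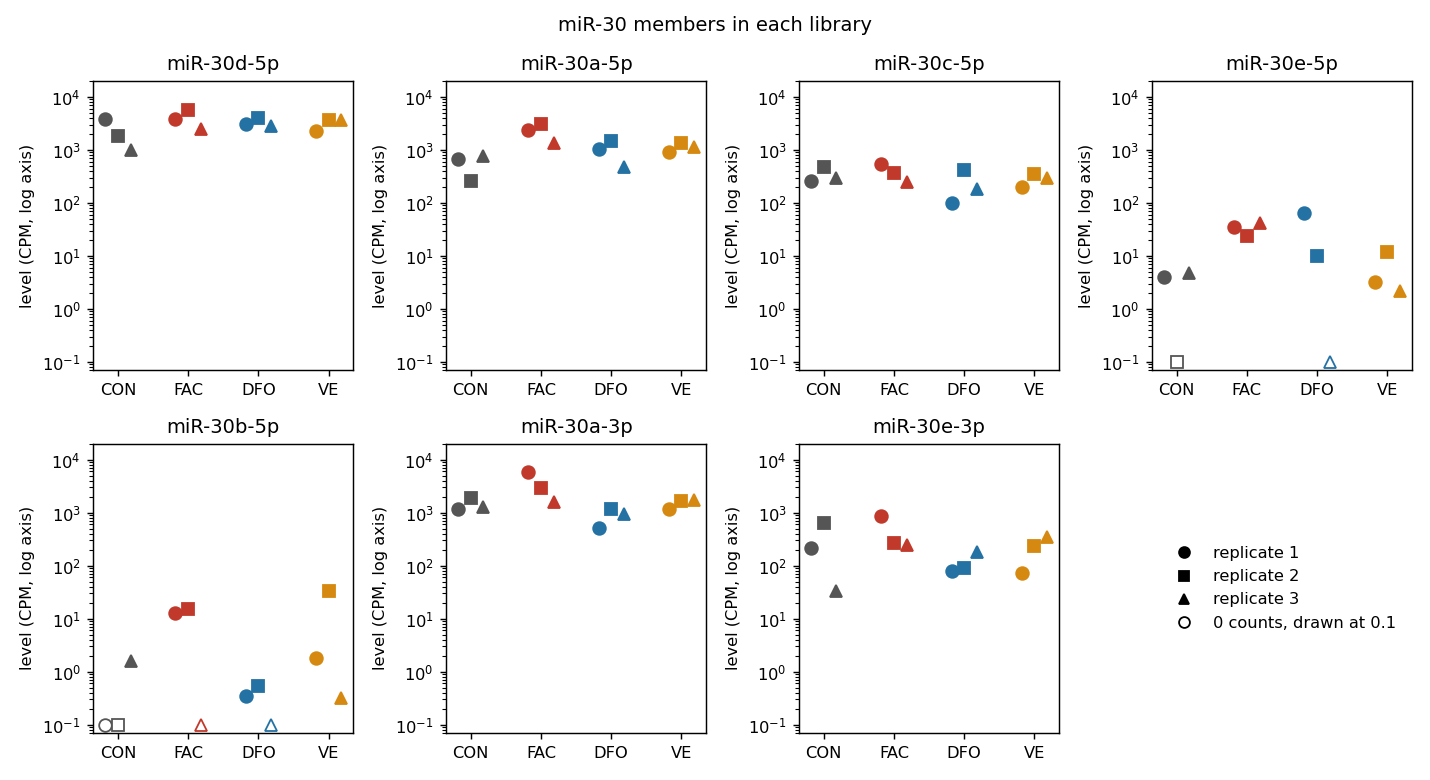
Level of each miR-30 member (CPM, log axis) in the 12 libraries, by group, with a circle, square and triangle for replicates 1, 2 and 3 and open symbols at 0.1 for libraries with 0 counts. The FAC libraries of mmu-miR-30a-5p and mmu-miR-30e-5p lay above all CON libraries, and mmu-miR-30b-5p was at 0 in CON replicates 1 and 2, FAC replicate 3 and DFO replicate 3.

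The second comparison set FAC against DFO, iron load without and with the chelator. Here the 3p arm of miR-30a was past the study's threshold before adjustment and its 5p arm was not. The arms were not tested against each other between these groups. mmu-miR-30a-3p was at 521.6, 1190 and 962.2 CPM in DFO replicates 1 to 3, below every FAC library (5736, 2909 and 1596 CPM). The log2 fold change, FAC minus DFO, was 1.94 (standard error 0.68, edgeR adjusted p = 0.133), past the study's threshold. The call rested on FAC replicate 1. Without it the log2 fold change of mmu-miR-30a-3p was 1.31, no longer past the threshold (edgeR adjusted p = 0.635). DESeq2 gave mmu-miR-30a-3p an adjusted p of 0.0153, and its adjusted p ran from 0.0153 to 0.141 under the alternatives that left out no library of FAC or DFO.

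mmu-miR-30e-3p, which shares the seed of mmu-miR-30a-3p, was at 77.86, 91.63 and 177.9 CPM in DFO and also lay higher in every FAC library. Its log2 fold change was 1.99 (standard error 1.04, edgeR adjusted p = 0.42), short of the threshold. With FAC and DFO alone in the fit, it passed as the second member beside mmu-miR-30a-3p, where 13.9% of the 517 entries then tested passed.

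mmu-miR-30a-5p was at 1034, 1461 and 479.6 CPM in DFO. DFO replicate 2 lay above FAC replicate 3, so the groups overlapped, and the log2 fold change was 1.21 (standard error 0.72, edgeR adjusted p = 0.458). mmu-miR-30d-5p was at 3091, 3940 and 2863 CPM in DFO, inside the FAC range, with a log2 fold change of 0.29 (standard error 0.60). mmu-miR-30c-5p was at 98.88, 428.4 and 187.6 CPM and its log2 fold change was 0.70 (standard error 0.96).
mmu-miR-30e-5p was split within DFO, with 186, 55 and 0 counts, or 64.1, 9.86 and 0 CPM. The highest and the lowest of the 6 libraries were both in DFO, and the log2 fold change was 0.44 (standard error 2.51). mmu-miR-30b-5p had 1, 3 and 0 counts in DFO, and its log2 fold change of 4.73 had a standard error of 3.75.

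In FAC against DFO, 1 of 7 members passed the threshold, beside 12.2% of the tested entries (4.75% higher in FAC). No member had an adjusted p under 0.05 in edgeR, with 1 member at an unadjusted p under 0.05, and 1 member had one in DESeq2. The share of all tested entries with an adjusted p under 0.05 was 0.914% in edgeR and 7.86% in DESeq2. In DESeq2 2 members were past the threshold, beside 15.5% of the tested entries. The groups did not overlap in 2 members, both 3p arms, and were higher in FAC without overlap in 10.1% of all tested entries. The median log2 fold change of the members was 1.21 and that of all entries 0.66, with 7 of 7 members and 321 of the 547 entries (58.7%) above 0.

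The third comparison set FAC against VE, iron load without and with VITE. No member passed the threshold in edgeR, nor had any an unadjusted p under 0.05, while 9.32% of the tested entries passed (4.39% higher in FAC) and 0.366% had an adjusted p under 0.05. In DESeq2 1 member passed, mmu-miR-30a-3p, beside 11% of the tested entries. mmu-miR-30a-5p was at 909.7, 1366 and 1123 CPM in VE and all 3 FAC libraries were above these, the lowest by a narrow margin (1381 CPM). Its log2 fold change was 1.02 (standard error 0.72, edgeR adjusted p = 0.521). mmu-miR-30a-3p was at 1195, 1631 and 1759 CPM in VE. FAC replicate 3 lay within that range, and the log2 fold change was 1.16 (standard error 0.66, edgeR adjusted p = 0.521).

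mmu-miR-30e-5p had 7, 32 and 7 counts in VE, or 3.16, 11.7 and 2.20 CPM, below every FAC library. On the log2 scale the change was 2.56 with a standard error of 2.66 (edgeR adjusted p = 0.631). mmu-miR-30b-5p was present in VE mainly through replicate 2, with 4, 92 and 1 counts, and was the only member with a fold change below 0 (log2 -0.35, standard error 3.22). That sign turned without VE replicate 2, to a log2 fold change of 3.10, and it was 0.12 on miRNA totals with no composition factor.
mmu-miR-30d-5p stood at 2235, 3702 and 3619 CPM in VE (log2 fold change 0.34, standard error 0.60). mmu-miR-30c-5p stood at 201.9, 352.5 and 295.1 CPM (log2 fold change 0.45, standard error 0.96). mmu-miR-30e-3p had a mean of 219 ± 138 CPM (SD, n = 3) in VE and a log2 fold change of 1.07 (standard error 1.01). Each of these 3 members overlapped between the groups.

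Between FAC and VE, 2 members had FAC libraries wholly above the VE libraries, beside 9.87% of the tested entries. The median log2 fold change was 1.02 over the members and 0.63 over all entries, with 6 of 7 members and 329 entries (60.1%) above 0. All 3 comparisons use the same FAC libraries, and their results depend on each other.

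**Figure D4:**
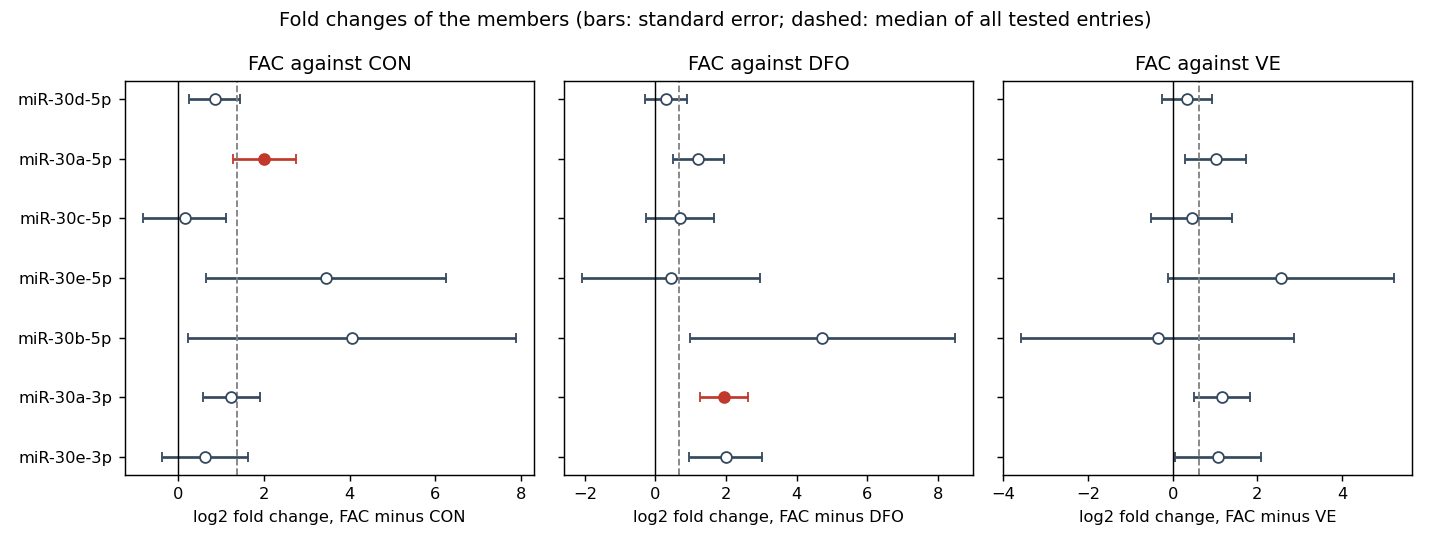
Log2 fold change of each miR-30 member with its standard error (horizontal axis, FAC minus the other group) in edgeR, for FAC against CON, DFO and VE. Standard errors were derived from the F statistic of the test. Filled symbols are past the study's threshold, mmu-miR-30a-5p against CON and mmu-miR-30a-3p against DFO, and the dashed lines are the medians of all 547 tested entries (1.38, 0.66 and 0.63). mmu-miR-30b-5p against CON rests on 1 CON count.

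Against the untreated cells, neither DFO nor VE had a member past the threshold in edgeR or at an unadjusted p under 0.05 there. In DFO against CON 7.68% of the tested entries passed (2.74% higher in DFO) and 0.548% had an adjusted p under 0.05. In VE against CON 10.4% passed (3.29% higher in VE) and 2.01% had an adjusted p under 0.05. DESeq2 gave 1 member in DFO, mmu-miR-30e-5p, and none in VE, beside 9.32% and 11.9% of the tested entries. In DFO the median of the members was -0.55 on the log2 scale, against 0 over all entries, and 3 of 7 members were above 0, as were 42.2% of the entries. Lower means in DFO than in CON were found for mmu-miR-30a-3p (891 ± 340 against 1450 ± 414 CPM, SD, n = 3), mmu-miR-30e-3p (116 ± 54.2 against 297 ± 313 CPM), mmu-miR-30c-5p (238 ± 170 against 350 ± 118 CPM) and mmu-miR-30b-5p. The log2 fold change of mmu-miR-30a-3p was -0.70 (standard error 0.66) and that of mmu-miR-30e-3p -1.36 (standard error 1.02, edgeR adjusted p = 0.693). mmu-miR-30a-5p went the other way, with 0.80 (standard error 0.71, edgeR adjusted p = 0.725). All 7 members overlapped between DFO and CON, where 3.84% of the tested entries were higher and 2.19% lower in DFO without overlap. The lower levels hold for CPM only. Scaled to library read totals, all 7 members had a log2 fold change above 0 between DFO and CON, from 0.81 (mmu-miR-30e-3p) to 4.84 (mmu-miR-30e-5p), and the median of all entries was 1.45.

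In VE the median of the members was 0.51 on the log2 scale, against 0 over all entries, with 5 of 7 members above 0 beside 40.2% of the entries. mmu-miR-30a-5p was the member whose VE libraries, at 909.7 CPM or more, lay above all CON libraries, as did 8.04% of the entries. Its log2 fold change was 0.99 (standard error 0.72, edgeR adjusted p = 0.593). mmu-miR-30a-3p had a log2 fold change of 0.08 (standard error 0.66). With read totals all 7 members were above 0 in VE as well, from 1.73 (mmu-miR-30c-5p) to 6.15 (mmu-miR-30b-5p), and the median of all entries was 0.99. These comparisons and FAC against CON share the CON libraries.

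The arms of 1 hairpin can be compared within a library with no scaling between libraries. In miR-30a neither arm dominated. The 5p share of the counts of both arms was 37.0, 11.9 and 37.7% in CON replicates 1 to 3, 29.6, 51.6 and 46.4% in FAC, 66.5, 55.1 and 33.3% in DFO and 43.2, 45.6 and 39.0% in VE. The 3p arm was thus the more frequent in 9 of the 12 libraries. The means were 28.9% ± 14.7 (SD, n = 3) in CON, 42.5% ± 11.5 in FAC, 51.6% ± 16.9 in DFO and 42.6% ± 3.35 in VE. These means did not differ beyond the spread (exact permutation test over 369600 assignments of the libraries to 4 groups, upper tail, p = 0.263). Without DFO replicate 3 the exact p was 0.0455.

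In miR-30e the 3p arm was the more frequent in all 12 libraries. The 5p share was 1.86, 0 and 12.5% in CON, 3.92, 8.16 and 14.3% in FAC, 45.1, 9.72 and 0% in DFO and 4.19, 4.67 and 0.631% in VE. DFO replicate 1 stood apart with 186 counts of 5p and 226 of 3p (lower bound of the 95% Wilson interval of the 5p share 40.4%). A share of 0 in CON replicate 2 was 0 of 244 counts, with an upper Wilson bound of 1.55%. The exact permutation test over the 4 groups gave p = 0.567.

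miR-30d was read almost wholly from its 5p arm, at 99.8% or more in every library. miR-30b was unlike it, since the arm that was found changed from library to library. Its 5p arm made up 111 of 111 counts in FAC replicate 1, 112 beside 3 of the 3p arm in FAC replicate 2, and 92 of 92 in VE replicate 2. In DFO replicate 2, 139 counts were 3p and 3 were 5p, and in VE replicate 3, 89 were 3p and 1 was 5p. The other 7 libraries held at most 4 counts of either arm, too few to tell the arms apart. VE was thus the only group in which replicates with more than 4 counts differed in the arm found.

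**Figure D5:**
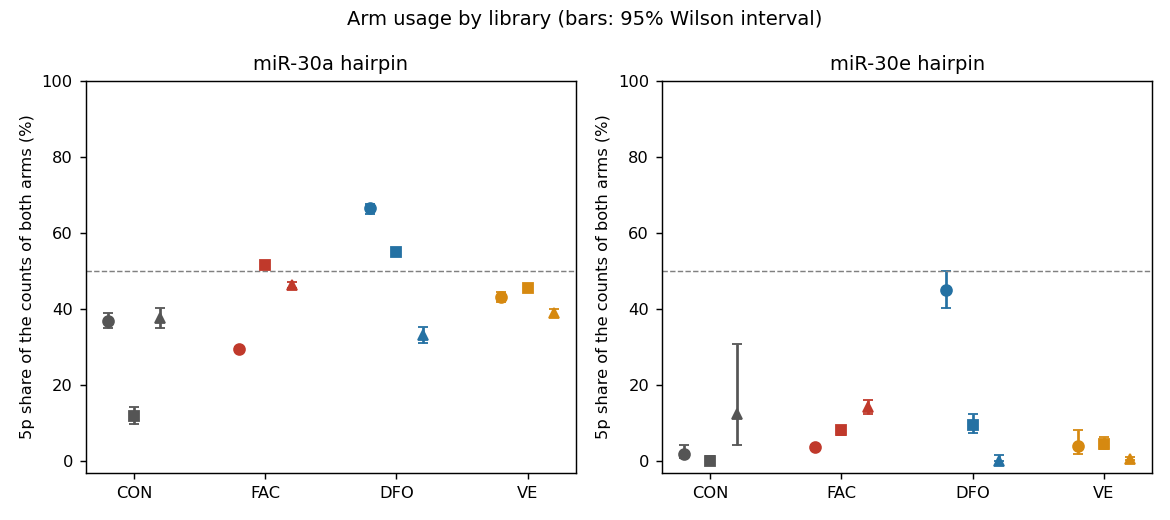
Share of the 5p arm in the counts of both arms of the miR-30a (left) and miR-30e (right) hairpins in each library (percent), with 95% Wilson intervals and a circle, square and triangle for replicates 1, 2 and 3. The dashed line marks equal arms. miR-30a lay between 11.9 and 66.5%, and miR-30e below the line in all 12 libraries.

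The members did not move as 1 block across the 12 libraries. The closest pairs on log2 CPM were mmu-miR-30c-5p with mmu-miR-30a-3p (Pearson r 0.81) and mmu-miR-30a-5p with mmu-miR-30e-5p (r 0.80), followed by the 3p arms of miR-30a and miR-30e (r 0.71). Both of the latter pairs are the near-identical sequences printed above. The arms of the miR-30a hairpin had an r of 0.46, those of miR-30e -0.07, and the lowest r was -0.12, between mmu-miR-30c-5p and mmu-miR-30e-5p. These values describe 12 libraries that share their group structure and scaling, and no p is given. When the near-identical members were summed into 1 entry per arm, an alternative chosen after seeing the data, the miR-30a and miR-30e 5p sum had a log2 fold change of 2.11 between FAC and CON (standard error 0.73, edgeR adjusted p = 0.108). The 3p sum had 1.98 between FAC and DFO (standard error 0.66, edgeR adjusted p = 0.0952).

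The other arm of the miR-30c-2 hairpin, mmu-miR-30c-2-3p, which has a seed of its own, followed another order. Its sequence is shown because it parts from the member of the same hairpin, with the seed in capitals.
mmu-miR-30c-2-3p: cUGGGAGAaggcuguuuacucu
It was at 53.24, 13.16 and 7.862 CPM in CON, 145.3, 76.79 and 40.82 in FAC, 106.1, 151.2 and 144.9 in DFO and 4.517, 49.94 and 51.54 in VE. The DFO libraries were above all CON libraries, as were those of 3.84% of the tested entries. They were also above all VE libraries, but DFO and VE were not compared over all entries. FAC replicate 1 lay within the DFO range. mmu-miR-30c-5p had its lowest mean in DFO, but its groups overlapped. The log2 fold change of mmu-miR-30c-2-3p was 2.42 between DFO and CON (standard error 1.56, edgeR adjusted p = 0.669), short of the threshold.

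The 5 entries whose log2 level followed the summed family most closely, of 124 candidates with a mean of at least 100 CPM, were mmu-miR-28a-3p (Pearson r 0.82 over 12 libraries), mmu-miR-24-3p (0.81), mmu-miR-23a-3p (0.81), mmu-miR-148b-3p (0.77) and mmu-miR-99a-5p (0.74). mmu-miR-23a-3p and mmu-miR-24-3p are encoded in a shared cluster. mmu-miR-24-3p was at 1440 ± 363 CPM (SD, n = 3) in CON, 3510 ± 1350 in FAC, 911 ± 160 in DFO and 1830 ± 552 in VE. mmu-miR-99a-5p, one of the most abundant entries, was at 73700 ± 13800 CPM in CON, 149000 ± 31600 in FAC, 60000 ± 6640 in DFO and 123000 ± 6220 in VE. The entries were chosen for this likeness, so their high FAC means are no separate result. Below FAC the order of their means differed from that of the family sum, which was lowest in CON. mmu-miR-28a-3p had its lowest mean in VE (293 CPM) and the others in DFO. Some of these gaps lay within the spread. mmu-miR-23a-3p was at 239 ± 209 CPM in CON and 216 ± 130 in DFO, and the family sum at 4910 ± 1450 and 5560 ± 1360. The members followed their own sum with an r from 0.45 (mmu-miR-30e-5p) to 0.80 (mmu-miR-30d-5p).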

How the data were processed

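Exosomal small RNA of mouse granulosa cells was sequenced on an Illumina HiSeq 2500 with reads of 15 to 41 bp. For each of the 12 libraries the authors deposited counts, the whole-number reads on each miRNA entry, and a column named TPM. That deposited column held RPM, since count divided by value was 1 constant per library (read totals of 22631206 to 24845945). The submitters' processing notes name mm9. The aligner and the miRNA database are not given in the sources used here. Nothing states that the 3 libraries of a group came from separate cultures, so p-values measure only the spread between these libraries, which may be technical. The 66 library pairs differed beyond sampling noise (smallest chi-square per degree of freedom 155.7).

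Counts of 547 of the 637 entries (10 counts or more in the 12 libraries together) were tested with edgeR 4.0.16 (R 4.3.3; TMM, quasi-likelihood, 4 groups in 1 fit, common biological coefficient of variation 1.57) in 5 comparisons, with Benjamini-Hochberg adjustment over all 547. The threshold was the study's, a fold change of at least 1.5 and an unadjusted p under 0.05. As edgeR standard error, the absolute log2 fold change divided by the square root of the quasi-likelihood F statistic was used. Scripts were tested on simulated data. Alternatives used DESeq2 1.42.0, limma 3.58.1 on log2(RPM + 1) and log2(RPM + 0.1), other scalings and filters, and each library left out in turn. Arm shares were tested by exact permutation (Python 3.11.15, SciPy 1.17.1). Sequences came from RefSeq (GRCm38.p6), not the build of the files, and no coordinates are given.

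The named entries are the 7 members, the other miR-30 or miR-384-5p entries, and the 5 most like the family sum by Pearson r of log2 CPM (prior count 2). The members, marker lists and tests were chosen with earlier results of these data known.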

Additional observations from a re-analysis of the deposited data

How the results depend on the processing

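The number of members past the threshold depended on the scaling. Between FAC and CON it was 1, and it was 3 with no composition factor, 6 with library read totals, 2 in DESeq2, 2 with no low-count filter and 6 in limma at both pseudocounts, with a range of 1 to 2 without each library in turn. The share of all entries past the threshold was 9.51%, and 9.51, 29.1, 13.2 and 8.48% under the first 4 settings and 35.6 and 35.1% in limma with 1 and 0.1 added. Between FAC and DFO it was 1, and 3, 3, 2 and 2 under the same 4 settings, 2 with the compared groups only, 4 and 3 in limma with 1 and 0.1 added, and 0 to 2 without each library in turn (0 without FAC replicate 1). The shares were 12.2%, then 12.2, 13.7, 15.5 and 10.8%, 13.9%, and 22.5 and 21%. Between FAC and VE it was 0, and 2, 4, 1 and 1 under the same 4 settings, 3 with the compared groups only, 4 in limma at both pseudocounts, and 0 to 2 without each library. The shares were 9.32%, then 8.96, 14.8, 11 and 8.01%, 13.3%, and 18.8 and 16.6%. Between DFO and CON it was 0, and 3 with library read totals, 1 in DESeq2 and 2 in limma at both pseudocounts (shares 17, 9.32, 15.4 and 16.1%, against 7.68%). Between VE and CON it was 0, and 3 with library read totals and in limma at both pseudocounts (shares 21.6, 17.7 and 18.5%, against 10.4%). Without any 1 library these last counts stayed at 0. An adjusted p under 0.05 between FAC and CON was reached by 5 members with read totals and 6 in limma at both pseudocounts. Of the 547 entries, 89, 114 and 122 reached it under these 3 settings. Between FAC and DFO 1 member reached it under each of them, beside 15, 18 and 14 entries. Between DFO and CON 1, 0 and 1 members did, beside 17, 12 and 19 entries, and between VE and CON 0, 0 and 2, beside 16, 13 and 25. Read totals and RPM keep the difference in the miRNA share, which the other scalings remove. The cause of the other changes was not tested.

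The mean family sum was 162, 3230, 817 and 730 in RPM (CON, FAC, DFO, VE). Without each library it ran from 4250 to 5690 CPM in CON, 9250 to 12900 in FAC, 4780 to 6000 in DFO and 5880 to 7240 in VE. The exact permutation p of the 5p share ran from 0.0455 to 0.557 in miR-30a and from 0.0655 to 0.717 in miR-30e.

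The sign of the log2 fold change turned for miR-30c-5p between FAC and CON (-0.04 with RLE factors, -0.03 in DESeq2, -0.08 with filterByExpr, -0.20 to 0.61 without each library) and for miR-30e-3p (-0.25 to 2.06 without each library). Between FAC and DFO it turned for miR-30d-5p (-0.02 with filterByExpr, -0.10 to 0.50 without each library) and miR-30e-5p (-0.01 with RLE factors and in DESeq2, -0.14 to 2.65 without each library). Between FAC and VE it turned for miR-30b-5p (0.12 with no composition factor, 1.19 with read totals, 0.80 and 1.30 in limma, -0.92 to 3.10 without each library). Between DFO and CON read totals turned miR-30a-3p (-0.70 to 1.64), miR-30e-3p (-1.36 to 0.81), miR-30c-5p (-0.55 to 2.03) and miR-30b-5p (-0.67 to 1.66), and the last ran from -1.33 to 3.44 without each library. Between VE and CON they turned miR-30c-5p (-0.30 to 1.73) and miR-30e-3p (-0.44 to 1.81). Without each library, miR-30e-3p then ran from -1.02 to 0.79, miR-30e-5p from -0.18 to 1.30 and miR-30a-3p from -0.06 to 0.30, and over the other alternatives miR-30a-3p ran from -0.18 to 2.09. miR-30a-5p between FAC and CON and miR-30a-3p between FAC and DFO were past the threshold under all alternatives that kept all libraries.

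The groups share replicate numbers, but the numbers did not pair the libraries: deviations from the group means had a mean r of 0.00421 over 18 same-numbered pairs and -0.00202 over 36 others. With the replicate block, 1, 1, 0, 0 and 0 members passed in the 5 comparisons, as without it, and miR-30b-5p between FAC and VE turned to 0.31.

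Depth limits the scarce members most, since a level of 3 counts was 7.90 CPM in CON replicate 2 and 0.351 CPM in FAC replicate 1.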

Other observations

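The tables held 6 further entries of the miR-30 hairpins or of the 5p seed. Besides miR-30c-2-3p and miR-30b-3p, whose values are given above, they were all scarce. miR-30d-3p had 43, 53 and 16 counts in FAC replicates 1 to 3 and at most 8 counts in any other library. In CPM its FAC libraries, at 5.036, 7.078 and 3.25, were above all 9 others, but the log2 fold change between FAC and CON was 1.83 with a standard error of 3.68 (edgeR adjusted p = 0.808). A level of 3 counts was 2.46 to 7.90 CPM in the CON libraries, a range that takes in these FAC levels. Between FAC and CON, 10.1% of the tested entries were higher in FAC without overlap. miR-30f had 51, 37 and 13 counts in FAC and 0 to 19 counts elsewhere, and in CPM it was highest in CON replicate 2 (13.16). It is read from the strand opposite miR-30e, and 19 of its 22 bases are the reverse complement of miR-30e-3p. miR-30c-1-3p had 2 counts in all, and miR-384-5p, which carries the same seed as the 5p members, had 1 count in each of the 3 VE libraries and none elsewhere. Neither of the last 2 entries was tested.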
